A study of Mus musculus with 48 samples.

Results

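A set of 7 genes is described whose RNA was lower in *Nrde2*-KO mouse embryonic stem cells (mESCs), a deficit that was smaller or absent in cells treated with cycloheximide (CHX). They are *Pan2*, *Aaas*, *Parp2*, *Ap3d1*, *Mink1*, *Iqgap3* and *Spice1*, 7 of the 55335 genes listed in each of the RNA-seq and Ribo-seq tables, and all 7 passed the filter on low values in every fit. They were chosen for a knockout effect that was higher with CHX than without it, so the values of that contrast and of its arms describe the choice and were not tested. *Pan2* encodes the catalytic subunit of the PAN2-PAN3 deadenylase, which shortens the poly(A) tails of mRNAs, and *Aaas* encodes ALADIN, a protein of the nuclear pore. *Parp2* encodes an ADP-ribosyltransferase that responds to DNA breaks, and *Ap3d1* the delta subunit of the AP-3 adaptor, which sorts membrane cargo towards lysosomes and related organelles. *Mink1* encodes a kinase of the MAP4K family, *Iqgap3* a scaffold protein that binds small GTPases, and *Spice1* a centriole and spindle protein needed for centriole duplication.

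The study asked what NRDE2 and CCDC174 do in pre-mRNA splicing. Stranded total RNA without ribosomal RNA was sequenced in 28 libraries and ribosome footprints (Ribo-seq) in 4, with 2 libraries in each group. All cells were male 129-C57BL/6 hybrid mESCs kept in serum, LIF and 2i. CHX was used to block translation, and with it the RNA surveillance that depends on translation.

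In the first experiment, *Nrde2*-WT cells carried a conditional *Nrde2* allele and a Cre-ERT2 transgene in the Rosa26 locus and received no 4-hydroxytamoxifen (4OHT), and *Nrde2*-KO cells received 100 nM 4OHT for 4 d. *Nrde2d200* cells lack an amino-terminal stretch of NRDE2, and *Nrde2-D174R* cells carry a point mutation. Both were set against the same *Nrde2*-WT libraries as *Nrde2*-KO. *Mtrex*-KO cells received 100 nM 4OHT for 3 d and were compared with their own conditional line without 4OHT. *Ccdc174*-WT and *Ccdc174-dTAG* cells both express CCDC174 fused to the FKBP12F36V degron, and only the latter received 500 nM dTAG-13 for 24 h. A second *Nrde2* experiment and the *Ccdc174* experiment were each sequenced without CHX and after 4 h of CHX at 0.1 mg/ml. *Nrde2*-KO cells of the second experiment also received 100 nM 4OHT for 4 d, and their conditional *Nrde2*-WT line received none. Ribo-seq compared *Nrde2*-KO cells, labelled with the same 4OHT dose and time, with wild-type cells without 4OHT. The edited lines were expanded from clones, and the action of 4OHT or dTAG-13 cannot be told apart from the loss of the protein. The labels number the replicates but do not say whether they were separate cultures, so the p-values measure the spread between these libraries.

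At a 5′ splice site (5′SS), U1 snRNA pairs with the last bases of the exon and the first bases of the intron, and the spliceosome is built from there. A transcript that keeps an intron or is cut at another site often gains a premature stop codon, and nonsense-mediated decay degrades such transcripts only while they are translated. CHX arrests translating ribosomes, so substrates of this decay accumulate in treated cells. The reads were counted per gene and cannot tell a spliced mRNA from an isoform or a transcript with a retained intron.

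Because the sequence of a 5′SS is what U1 snRNA reads, the lowest-scoring annotated 5′SS of each gene is shown first. Each run holds the last 8 exonic and the first 12 intronic bases of the transcript with the longest coding sequence, on the strand of the gene, from the RefSeq copy of GRCm38 with GENCODE M21 exons. Capitals mark the 3 exonic and 6 intronic bases that were scored. The score is the sum of the log2 odds of each base against equal base use, given the base frequencies at 205738 annotated sites of protein-coding genes.
*Pan2*, intron 7 of 25, chr10:128310506-128310525, plus strand: gctccCAGGTTGTAcctcac
*Aaas*, intron 1 of 15, chr15:102350484-102350503, minus strand: ggggcCAGGTGGTCcgggtg
*Parp2*, intron 8 of 15, chr14:50817116-50817135, plus strand: cccgcTTGGTAGGActcaga
*Ap3d1*, intron 2 of 30, chr10:80732839-80732858, minus strand: tcaccTACGTGAGTgccttc
*Mink1*, intron 6 of 32, chr11:70602050-70602069, plus strand: caagcTAGGTACTAcggatc
*Iqgap3*, intron 29 of 37, chr3:88112823-88112842, plus strand: aagttCAGGTCTCAactctt
*Spice1*, intron 8 of 17, chr16:44370012-44370031, plus strand: tcagaAAGGCTAGTtcctcc

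The *Iqgap3* site scored 0.834, a value that 1.32% of all annotated sites did not exceed. The *Pan2* site scored 1.18 (1.46% of sites at or below it) and the *Spice1* site 1.99 (1.95%). These are the 3 lowest scores of the sequences shown. The *Spice1* intron starts with GC, as 1.03% of annotated introns do, whereas 98.6% start with GT. The *Mink1* site scored 3.25 (3.52%), and the sites of *Aaas*, *Parp2* and *Ap3d1* scored 4.45 (7.50%), 5.08 (13.1%) and 5.53 (17.2%). The lowest site of the median tested gene scored 4.45, and a gene with more introns has more chances of a low one. The 7 genes have 15 to 38 scored sites each, against a median of 9.

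Over all sites of the 7 genes together the median score was 7.91, against 8.13 for all annotated sites. Of these sites, 11 (6.32%) lay in the lowest 5% of all sites, below a score of 3.86, and 4.83% of the sites of tested genes did. *Pan2* had 4 such sites among 25, *Iqgap3* 4 of 38, *Spice1* 2 of 17 and *Mink1* 1 of 34, whereas *Ap3d1*, *Aaas* and *Parp2* had 0. At least 1 such site was present in 38.3% of the tested genes. Counted instead as sites with at most 4 of 9 positions holding the most frequent base, 5 sites of the 7 genes (2.87%) were low, close to the 2.55% of all sites. Read-through from the exon met an in-frame stop codon inside the intron for 156 of the 169 coding introns of the 7 genes, and for 96.4% of the coding introns of the other tested genes. In the introns shown, that stop codon ended between 5 bases (*Spice1*) and 138 bases (*Ap3d1*) after the exon. These sites were picked by score alone, and reads per intron were not analysed here.

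**Figure D1:**
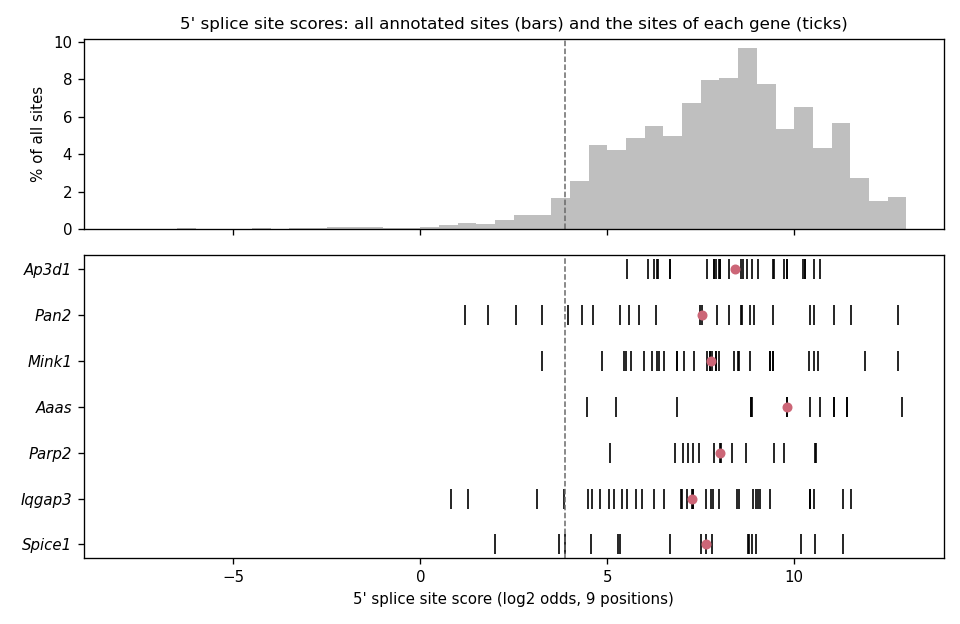
Scores of 5′SSs (log2 odds summed over 9 positions). Bars give the percentage of all 205738 annotated sites per score bin, ticks the sites of each of the 7 genes, red dots their medians and the dashed line the lowest 5% of all sites (3.86). *Pan2* and *Iqgap3* have 4 ticks left of the line, *Spice1* 2, *Mink1* 1 and the other genes 0.

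The RNA-seq libraries held 28683644 to 36272309 reads in genes and the Ribo-seq libraries 3475051 to 5035940. Each of the 7 genes had 326 to 9154 reads per RNA-seq library and 20 to 808 per Ribo-seq library. Levels are normalized CPM, in which the CPM of a library were scaled by its median-of-ratios factor, and the values of a pair are given for replicate 1 and then replicate 2. *Nrde2* itself was at 41.6 and 40.5 in *Nrde2*-WT and 19.3 and 20.4 in *Nrde2*-KO of the first experiment. In the second experiment it was at 53.6 and 52.2 in *Nrde2*-WT and 19.96 and 19.7 in *Nrde2*-KO without CHX, but at 244 and 226 in *Nrde2*-WT and 259 and 250.3 in *Nrde2*-KO with CHX. Exons 5 and 6, which the conditional allele deletes, hold 23.05% of its exonic bases, so the level with CHX does not check the labels of those libraries. Of the other genes differentially expressed in the first *Nrde2*-KO experiment, 702 of 711 changed in the same direction in *Nrde2*-KO with CHX. *Mtrex* was at 119 and 112 in *Mtrex*-WT and 46.4 and 41.6 in *Mtrex*-KO. The level of *Ccdc174* mRNA does not check a protein degron. All 15 pluripotency markers listed were at a mean of at least 1 CPM. The summed CPM of fibroblast markers was 1.87 to 5.44, of primitive endoderm markers 90.5 to 364, of trophectoderm markers 61.4 to 515 and of primitive streak markers 7.66 to 21.3.

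The contrast that chose the genes is described first, in the second *Nrde2* experiment. *Pan2* was at 76.8 and 76.1 in *Nrde2*-WT and 40.4 and 43.4 in *Nrde2*-KO without CHX, and at 91.8 and 90.4 in *Nrde2*-WT and 98.6 and 94.3 in *Nrde2*-KO with CHX. *Aaas* was at 98.3 and 94.1 against 53.7 and 50.2 without CHX, and at 64.4 and 63.3 against 73.9 and 67.7 with it. *Mink1* was at 31.3 and 31.6 against 15.3 and 13.1 without CHX, and at 17.7 and 19.96 against 21.5 and 19.5 with it. In these 3 genes the knockout mean with CHX was 106% (*Pan2*), 111% (*Aaas*) and 109% (*Mink1*) of the *Nrde2*-WT mean, after 54.8%, 54.0% and 45.1% without CHX. The *Mink1* libraries of the CHX-treated groups overlapped.

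In the other 4 genes the knockout stayed lower with CHX. *Ap3d1* was at 179 and 175 in *Nrde2*-WT and 76.4 and 71.4 in *Nrde2*-KO without CHX, and at 195 and 202 against 161 and 161 with it. *Parp2* was at 119.956 and 115 against 53.0 and 52.9 without CHX, and at 142 and 146 against 109 and 108 with it. The knockout mean moved from 41.7% to 80.9% of the control for *Ap3d1* and from 45.0% to 75.4% for *Parp2*. *Iqgap3* was at 82.6 and 89.8 against 31.6 and 29.1 without CHX, and at 95.7 and 98.3 against 61.9 and 59.8 with it. *Spice1* was at 30.6 and 28.8 against 13.2 and 12.6 without CHX, and at 50.2 and 51.4 against 43.4 and 42.5 with it. The knockout mean moved from 35.3% to 62.8% for *Iqgap3*, the lowest share with CHX among the 7 genes, and from 43.4% to 84.5% for *Spice1*. In bulk RNA, fewer cells of a type and less RNA per cell cannot be told apart.

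The knockout effect, the log2 fold change of *Nrde2*-KO over *Nrde2*-WT, ran from −1.50 (*Iqgap3*) to −0.86 (*Pan2*) without CHX and from −0.67 (*Iqgap3*) to 0.15 (*Aaas*) with CHX. Over all genes 11.3% were lower in *Nrde2*-KO without CHX, and with CHX 15.4% were lower and 12.5% higher, at an adjusted p below 0.01. The effect with CHX minus that without CHX was 0.74 (*Parp2*), 0.83 (*Iqgap3*), 0.95 (*Pan2*, *Ap3d1* and *Spice1*), 1.03 (*Aaas*) and 1.26 (*Mink1*), with SEs of 0.08 to 0.13. Of 15133 genes, 63 (0.416%) were higher in that contrast. The 7 genes took places 3 to 9 in the order of its moderated statistic, after *Nrde2* (1.52) and *Ccn2* (1.24), which encodes a secreted matrix protein. The last genes inside the choice were *Spice1* and *Iqgap3* (0.95 and 0.83). The first outside it were the condensin II gene *Ncaph2* (0.78, SE 0.09) and *Napa* (0.73, SE 0.09), which encodes alpha-SNAP, so no gap in size separates the 7 genes from those that follow.

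The 7 genes reached these differences along different routes, because CHX also acted on the control cells. In *Nrde2*-WT the level with CHX was 171% of that without for *Spice1*, 112% to 122% for *Pan2*, *Parp2*, *Iqgap3* and *Ap3d1*, and 59.9% and 66.3% for *Mink1* and *Aaas*. In *Nrde2*-KO it was higher for all 7 genes, from 136% (*Aaas*) and 144% (*Mink1*) to 333% (*Spice1*). For *Mink1* and *Aaas* the difference between the genotypes thus narrowed from both sides, with CHX lower in the control and higher in the knockout.

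**Figure D2:**
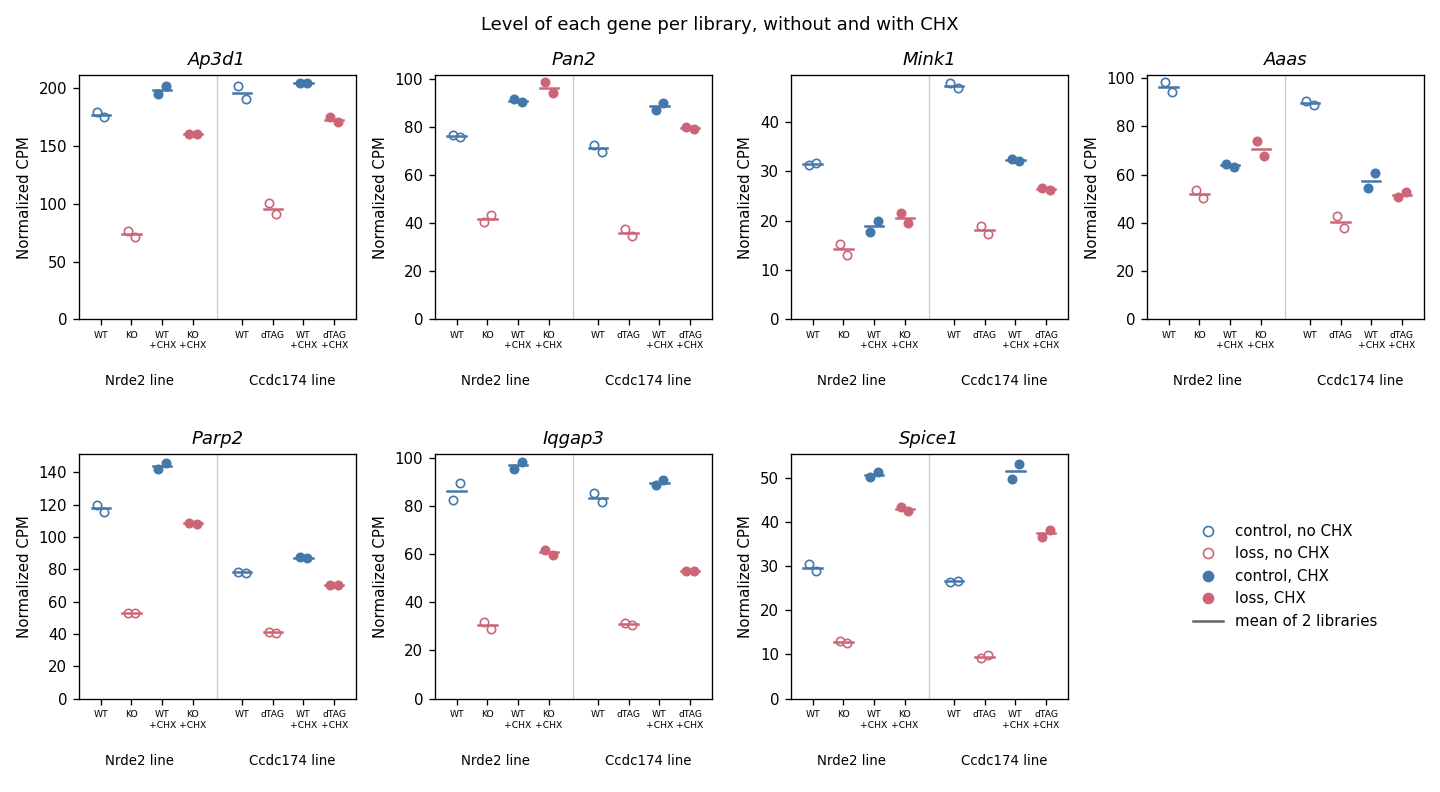
Normalized CPM of each of the 7 genes in the 8 libraries of the *Nrde2* line and the 8 of the *Ccdc174* line. Each circle is 1 library, open without CHX and filled with CHX, blue for the control and red for the knockout or depletion, and each line is the mean of 2 libraries. Red open circles lie below blue open circles in all panels, and the filled circles lie closer together, with *Mink1* overlapping in the *Nrde2* line.

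The *Ccdc174* line is not compared in the contrast of the choice and asks whether the same genes respond to loss of CCDC174. The statistic of that contrast, as fitted here, takes part of its spread from this line. Tests in this line are thus not shown to be free of the choice. Without CHX all 7 genes fell in *Ccdc174-dTAG*, where 4.45% of all genes were lower at an adjusted p below 0.01. *Spice1* fell from 26.5 and 26.7 in the control to 9.09 and 9.89 after depletion (log2 fold change −1.46, SE 0.11, limma adjusted p = 6.7e-08). *Iqgap3* was at 85.3 and 81.6 against 31.3 and 30.7 (−1.42, SE 0.08, adjusted p = 9.8e-09). *Mink1* was at 47.8 and 46.9 against 18.9 and 17.2 (−1.38, SE 0.12, adjusted p = 3.8e-07). The depleted cells thus kept 35.7%, 37.1% and 38.2% of the control level of these genes.

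Also without CHX, *Aaas* fell from 90.5 and 88.9 in the control to 42.7 and 37.7 (−1.15, SE 0.08, limma adjusted p = 3.9e-08). *Ap3d1* was at 202 and 191 against 101 and 91.1 (−1.03, SE 0.08, adjusted p = 6.7e-08). *Pan2* was at 72.7 and 69.6 against 37.4 and 34.7 (−0.98, SE 0.08, adjusted p = 3e-07). *Parp2*, with the smallest change of the 7, was at 78.1 and 77.9 against 41.3 and 40.8 (−0.92, SE 0.10, adjusted p = 6.2e-06). The groups did not overlap for any of the 7 genes, and 25.6% of all genes were likewise lower without overlap. All but *Pan2* and *Parp2* changed by more than 1 on the log2 scale, as 1.16% of all genes did downwards. The median of the 7 changes was −1.15, against 0.02 over the 14889 genes tested.

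With CHX the same depletion left smaller differences. *Iqgap3* was at 88.6 and 90.7 in the control and 53.2 and 52.9 after depletion (−0.75, SE 0.05, limma adjusted p = 9.3e-06). *Spice1* was at 49.8 and 53.2 against 36.7 and 38.2 (−0.46, SE 0.06, adjusted p = 0.0005). *Parp2* was at 87.4 and 86.8 against 70.3 and 70.4 (−0.31, SE 0.04, adjusted p = 0.00114). These genes and *Ap3d1*, at 205 and 205 against 175 and 171 (−0.24, SE 0.04, adjusted p = 0.00361), were the 4 that were lower, and 5.87% of all genes were. *Mink1* was at 32.4 and 32.0 against 26.6 and 26.3 (−0.28, adjusted p = 0.03). *Pan2* was at 87.3 and 90.2 against 80.1 and 79.2 (−0.16, adjusted p = 0.0414). *Aaas* was at 54.4 and 60.6 against 50.7 and 52.6 (−0.15, adjusted p = 0.125). For these 3 genes the limma test did not pass. With only the compared libraries limma also called 4 of the 7, with adjusted p-values of 0.0002 to 0.136 over the 7 and 709 of 15483 genes lower. The groups did not overlap for any of the 7 genes, and 29.9% of all genes were likewise lower without overlap. The count was 2 without replicate 1 of CHX-treated *Ccdc174-dTAG* and also 2 without its replicate 2, when *Ap3d1* and *Parp2* were lost.

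The effect of *Ccdc174-dTAG* with CHX minus that without CHX was above 0 for all 7 genes. It was largest for *Mink1* (1.10, SE 0.13), *Spice1* (1.01, SE 0.11) and *Aaas* (1.00, SE 0.11). It was 0.82 for *Pan2* (SE 0.09) and 0.79 for *Ap3d1* (SE 0.09). *Iqgap3* (0.67, SE 0.09) and *Parp2* (0.61, SE 0.08) had the smallest values. The median of the 7 genes was 0.82, against −0.01 over all genes.

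Whether these values passed the test depended on which libraries set the estimate of spread. In the 8 *Ccdc174* libraries alone, which are not compared in the contrast of the choice, limma called 0 of 7 genes, and 0 of 15034 genes in all. The 7 adjusted p-values were then 0.0158 to 0.0237, with 7 of 7 genes and 1378 genes in all at an unadjusted p below 0.05. As fitted here, the moderated statistic of the choice contrast takes part of its spread from these 8 libraries. The p-values are thus not shown to be free of the choice. In the fit of the 16 libraries of both lines limma called all 7 (adjusted p = 0.00083 to 0.00322), where 0.211% of 15133 genes were higher. That fit takes its spread, and the SEs above, in part from the *Nrde2* libraries that chose the genes, so its calls are not independent of the choice. In the 16 libraries, edgeR on the recovered reads called all 7, with 0.211% of genes higher, and DESeq2 all 7, with 0.567%. Without replicate 1 of CHX-treated *Ccdc174-dTAG* the larger fit called 2 of the 7, and without replicate 2 of CHX-treated *Ccdc174*-WT 4. Whether the *Ccdc174* values differ from the *Nrde2* values was not tested.

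**Figure D3:**
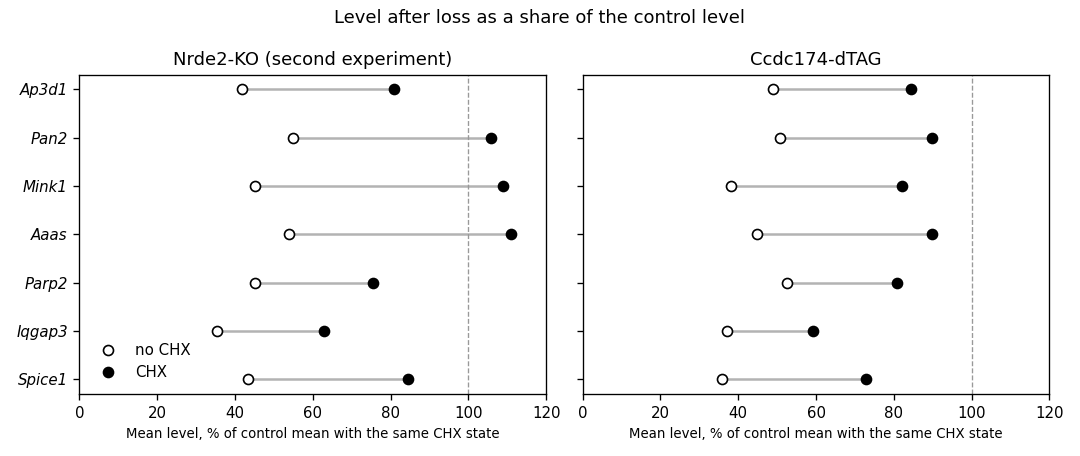
Mean level of the 7 genes after loss as a percentage of the control mean in the same CHX state, for *Nrde2*-KO (left) and *Ccdc174-dTAG* (right), 2 libraries per group. Open circles are without CHX and filled circles with CHX; the dashed line is the control level. *Pan2*, *Mink1* and *Aaas* lie right of the line with CHX in *Nrde2*-KO (106% to 111%) and left of it in *Ccdc174-dTAG* (82.1% to 89.8%).

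The response of *Ccdc174*-WT cells to CHX differed from gene to gene. *Spice1* (0.95, SE 0.08, limma adjusted p = 9.3e-08) and *Pan2* (0.32, SE 0.06, adjusted p = 0.00057) rose, as did 25.4% of all genes. *Aaas* (−0.64, SE 0.08, adjusted p = 5.6e-06) and *Mink1* (−0.55, SE 0.09, adjusted p = 0.00013) fell, as did 24.1%. *Parp2* (0.16), *Iqgap3* (0.10) and *Ap3d1* (0.06) did not pass the test, with adjusted p-values of 0.0208 to 0.403. CPM as deposited, which place the median of all genes at 0.21 here, put all 7 past the test, with these 3 genes higher and 47.7% of genes called. In *Ccdc174-dTAG* cells all 7 genes rose with CHX, where 26.3% of genes rose. With only the compared libraries limma called 4 of the 7 in *Ccdc174*-WT and 6 in *Ccdc174-dTAG*, where *Aaas* did not pass. *Spice1* rose most (1.95, SE 0.08, adjusted p = 8.6e-11), followed by *Pan2* (1.14, SE 0.06, adjusted p = 3.2e-09). *Aaas* rose least (0.36, SE 0.08, adjusted p = 0.00096). Over the 7 genes the change with CHX thus ran from −0.64 to 0.95 in the control and from 0.36 to 1.95 in depleted cells. Of 15 pluripotency markers, 4 rose and 8 fell with CHX in *Ccdc174*-WT, and their part in these values was not tested.

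Transcripts widely used as substrates of nonsense-mediated decay were examined beside them. Of 20 in *Ccdc174*-WT, 9 rose and 6 fell with CHX by limma, beside the 25.4% and 24.1% of all genes, with a median of 0.06. The largest increases were *Ddit3* (2.66), a stress response transcription factor, and the small nucleolar RNA host gene *Snhg15* (2.48). In the contrast of the *Ccdc174-dTAG* effect with and without CHX in the 16 libraries, 0 of these 20 were higher and 1 was lower, *Atf4* (−0.73, adjusted p = 0.00518), a transcription factor of the same stress response. By edgeR and DESeq2 the counts were also 0 higher and 1 lower. By limma 4 of the 20 had an unadjusted p below 0.05, as did 1464 of 15133 genes. With the *Ccdc174* libraries alone limma called 0 of 15034 genes in this contrast. Of 10 factors of the decay pathway, 2 rose with CHX in *Ccdc174*-WT.

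The first *Nrde2*-KO experiment shares no library with the choice. All 7 genes fell in it, where 10.6% of 14889 genes were lower. *Parp2* was at 99.9 and 107 in *Nrde2*-WT and 40.2 and 43.1 in *Nrde2*-KO (−1.31, SE 0.10, limma adjusted p = 8e-08). *Iqgap3* was at 83.4 and 86.8 against 35.2 and 33.5 (−1.30, SE 0.08, adjusted p = 2.2e-08). *Spice1* was at 45.1 and 44.1 against 17.9 and 18.7 (−1.28, SE 0.11, adjusted p = 2.3e-07). These 3 genes changed by more than 1 on the log2 scale, as 1.99% of all genes did downwards. *Ap3d1* was at 136 and 138 against 75.9 and 70.7 (−0.90, SE 0.08, adjusted p = 2.3e-07). *Pan2* was at 75.0 and 72.6 against 43.5 and 41.4 (−0.80, SE 0.08, adjusted p = 1.7e-06). The DNA repair, cytokinesis and centriole genes thus kept about 40.3% to 41.0% of the control level, and *Ap3d1* and *Pan2* 53.6% and 57.5%. *Mink1* was at 25.8 and 26.5 against 16.6 and 14.7 (−0.73, SE 0.12, adjusted p = 0.00016). *Aaas*, with the smallest change, was at 91.8 and 91.2 against 56.0 and 56.3 (−0.70, SE 0.08, adjusted p = 4.9e-06). The groups did not overlap for any of the 7 genes, and 36% of all genes were likewise lower without overlap. The median of the 7 genes was −0.90, against 0.00 over all genes. With only the compared libraries limma also called all 7, at adjusted p-values of 6.99e-07 to 0.000202, with 2256 of 14809 genes lower. Cell type markers moved in the same comparison. Of 15 pluripotency markers 3 fell, of 6 primitive endoderm markers 2 rose (*Gata6*, 1.78, and *Dab2*, 1.05) and 1 fell, and of 6 trophectoderm markers 2 rose (*Gata3*, 1.37, and *Cdx2*, 1.32). Their part in the values of the 7 genes was not tested.

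The *Nrde2* alleles were compared with the same *Nrde2*-WT libraries as the knockout. In *Nrde2d200*, 6 of the 7 genes were lower by limma, as were 4.27% of all genes. *Spice1* was at 26.6 and 23.9 (−0.82, SE 0.11, adjusted p = 7.6e-05), *Mink1* at 14.1 and 16.9 (−0.75, SE 0.12, adjusted p = 0.00035) and *Pan2* at 46.0 and 47.8 (−0.65, SE 0.08, adjusted p = 4.4e-05). *Iqgap3* at 52.6 and 58.0 (−0.62), *Parp2* at 71.8 and 63.3 (−0.61) and *Aaas* at 60.5 and 64.7 (−0.55) followed. *Ap3d1*, at 113 and 119.74, did not pass the test (−0.23, SE 0.08, adjusted p = 0.0423). The *Nrde2d200* levels were between 56.5% (*Spice1*) and 85.0% (*Ap3d1*) of *Nrde2*-WT. With only the compared libraries limma also called 6, with adjusted p-values of 1.32e-05 to 0.0338 over the 7 and 1187 of 14670 genes lower. Of 15 pluripotency markers 1 fell (*Utf1*, −1.41), and of 6 primitive endoderm and 6 trophectoderm markers 1 each rose (*Dab2*, 1.24, and *Gata3*, 1.04). Among all 14889 genes 479 rose. The part of these markers was not tested.

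In *Nrde2-D174R*, limma called 0 of the 7 genes, and 0.396% of all genes. The log2 fold changes ran from −0.25 (*Parp2*, SE 0.10) to 0.17 (*Ap3d1*, SE 0.08), and the adjusted p-values from 0.203 to 0.986. These 2 genes had an unadjusted p below 0.05, as did 2622 of 14889 genes, and edgeR and DESeq2 also called 0. *Pan2*, at 75.8 and 72.5, *Mink1*, at 25.4 and 26.3, and *Iqgap3*, at 83.7 and 88.5, overlapped with *Nrde2*-WT. Over all genes 57.4% did not overlap in this comparison. *Parp2*, at 86.3 and 87.3, *Spice1*, at 42.4 and 37.1, and *Aaas*, at 89.2 and 86.1, lay below both *Nrde2*-WT libraries, and *Ap3d1*, at 151 and 157, above them. Of 6 trophectoderm markers 1 rose in *Nrde2-D174R* (*Gata3*, 1.59, limma adjusted p = 0.00415).

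Loss of MTREX, an RNA helicase that feeds RNA to the nuclear exosome and binds NRDE2, split the 7 genes. In *Mtrex*-KO 4 were lower, where 27.4% of all genes were, and 2 were higher, where 28.5% were, so the members' shares are to be read against a high background. *Iqgap3* was at 85.7 and 83.3 in *Mtrex*-WT and 38.2 and 34.9 in *Mtrex*-KO (−1.20, SE 0.08, limma adjusted p = 1.7e-09). *Spice1* was at 31.0 and 35.2 against 17.7 and 20.4 (−0.79, SE 0.11, adjusted p = 4.4e-06). *Pan2* was at 78.0 and 70.0 against 46.9 and 47.0 (−0.65, SE 0.08, adjusted p = 1.6e-06). *Parp2*, at 88.9 and 111 against 65.9 and 74.1, was the other gene that fell (−0.51, SE 0.10, adjusted p = 0.00022). *Aaas* was at 100.396 and 103 against 129 and 136 (0.38, SE 0.08, adjusted p = 0.00038). *Ap3d1* was at 169.661 and 172 against 204 and 208 (0.27, SE 0.08, adjusted p = 0.00467). *Mink1*, at 26.5 and 26.0 against 27.7 and 23.1, overlapped (−0.05, adjusted p = 0.696). The higher calls depend on the scaling. With CPM as deposited the median of all genes was −0.38, and *Ap3d1* (−0.13) and *Aaas* (−0.02) no longer passed the test and were below 0, whereas *Mink1* was then lower. With the *Mtrex* libraries alone in the fit 3 of the 7 genes passed, where 34.5% of genes did, and *Ap3d1*, *Aaas* and *Parp2* did not. Leaving out any 1 of the 4 *Mtrex* libraries also lost *Ap3d1*. Markers of trophectoderm were higher in *Mtrex*-KO for 4 of 6 and of primitive endoderm for 3 of 6, primitive streak markers were lower for 3 of 4, and of 15 pluripotency markers 2 were higher and 6 lower. The *Mtrex*-KO replicates also differed most among the groups, with a chi-square per degree of freedom of 87.0 against 2.58 to 37.9 in the others, and 72.1% and 82.7% of their reads lay in genes. Their part in these results was not tested.

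**Figure D4:**
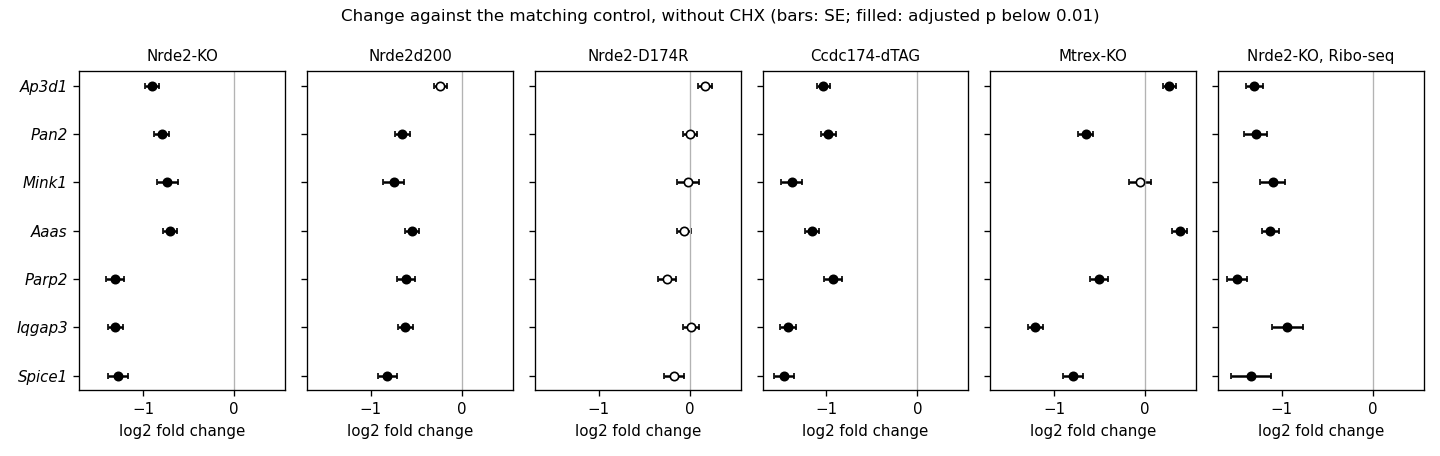
log2 fold change of the 7 genes against the matching control without CHX, with SE bars and filled circles for a limma adjusted p below 0.01, in 5 RNA-seq comparisons and in Ribo-seq (2 libraries per group). The 7 genes lie left of 0 in *Nrde2*-KO, *Ccdc174-dTAG* and Ribo-seq, near 0 in *Nrde2-D174R*, and on both sides of 0 in *Mtrex*-KO.

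Ribosome footprints were lower in *Nrde2*-KO for all 7 genes, where 14.2% of 13857 genes were lower and 11% higher. *Parp2* was at 51.1 and 51.1 in *Nrde2*-WT and 18.0 and 18.1 in *Nrde2*-KO (−1.49, SE 0.11, limma adjusted p = 2.6e-09). *Spice1* was at 9.13 and 11.6 against 3.60 and 4.29 (−1.34, SE 0.22, adjusted p = 6.6e-05). *Ap3d1* was at 92.4 and 108 against 42.3 and 38.5 (−1.30, SE 0.10, adjusted p = 4.4e-09). The footprints of these genes were at 35.3%, 38.0% and 40.3% of the control. *Pan2* was at 28.6 and 32.3 against 12.05 and 12.6 (−1.28, SE 0.13, adjusted p = 2.1e-07). *Aaas* was at 86.8 and 91.8 against 38.5 and 43.3 (−1.12, SE 0.09, adjusted p = 1.8e-08). *Mink1* was at 28.2 and 26.0 against 13.5 and 11.6 (−1.10, SE 0.13, adjusted p = 2.2e-06). *Iqgap3* showed the smallest change, at 13.4 and 12.9 against 7.19 and 6.38 (−0.94, SE 0.17, adjusted p = 0.00025), with 40 to 103 reads per library. The groups did not overlap for any of the 7 genes, and 34.2% of all genes were likewise lower without overlap. DESeq2 did not call *Iqgap3* (adjusted p = 0.0169). Of 15 pluripotency markers 2 rose and 4 fell in Ribo-seq, and of 5 primitive endoderm markers 2 rose, and their part was not tested.

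Set against the RNA-seq change of the first experiment, the Ribo-seq change was more negative for 6 of the 7 genes. Over all 12788 genes of this fit, that difference was above 0 for 6453. The difference was −0.49 for *Pan2* (SE 0.14, limma adjusted p = 0.0254), −0.42 for *Aaas* (SE 0.12, adjusted p = 0.0228), −0.40 for *Ap3d1* (SE 0.13, adjusted p = 0.0398) and −0.37 for *Mink1* (SE 0.17, adjusted p = 0.16). It was −0.18 for *Parp2*, −0.06 for *Spice1* and 0.37 for *Iqgap3*, with SEs of 0.12 to 0.21. limma called 0 of the 7, where it called 6.94% of all genes. At an unadjusted p below 0.05 were 4 of the 7, and 4116 of the 12788 genes. These 4 were the negative values of *Pan2*, *Aaas* and *Ap3d1* and the positive one of *Iqgap3*. The value of *Spice1* turned positive with CPM as deposited or with 1 added before log2. edgeR called 1, *Aaas* (−0.45, adjusted p = 0.00937), where it called 8.81% of genes, and DESeq2 0. The labels do not tie the Ribo-seq libraries to either RNA-seq experiment. In the second, without CHX, the RNA-seq changes were −1.26 (*Ap3d1*), −1.14 (*Mink1*), −0.89 (*Aaas*), −0.86 (*Pan2*), −1.15 (*Parp2*), −1.19 (*Spice1*) and −1.50 (*Iqgap3*). The Ribo-seq change was not tested against these.

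Genes that work with the products of the 7 genes were counted in the same fits. In the first *Nrde2*-KO experiment, where 10.6% of all genes fell and 7.64% rose, 6 of 14 nuclear pore genes fell and 1 rose by limma, among them the inner ring and membrane nucleoporins *Nup205* (−0.91) and *Nup210* (−0.96). Of 9 genes of ADP-ribosylation and single-strand break repair 3 fell, including *Parp1* (−0.77), the closest relative of *Parp2*, and *Lig3* (−0.58), which encodes a DNA ligase. Of 8 relatives and partners of IQGAP3 in cytokinesis 3 fell, with *Racgap1* (−0.64) changing most. Of the 6 other AP-3 subunit genes 2 rose (*Ap3m2*, 0.58, and *Ap3s2*, 0.30), and of 12 centriole duplication genes 2 rose (*Ccp110*, 0.51, and *Cntrob*, 0.49). Of 14 other deadenylase genes 1 fell (*Cnot1*, −0.38), and of 7 MAP4K genes 1 rose and 2 fell. The deadenylase count lay near the share over all genes. In *Ccdc174-dTAG* without CHX, where 4.45% of all genes were lower and 1.14% higher, 5 of the 14 pore genes, 3 of the 7 MAP4K genes, 3 of the 8 IQGAP3 partners and 1 of the 9 ADP-ribosylation genes were lower, and 1 centriole gene was higher. Of the AP-3 and deadenylase genes limma and edgeR called 0 and DESeq2 1 (*Cnot8*), and 2 and 5 had an unadjusted p below 0.05 by limma. At that limit limma counted 3789 of 14889 genes.

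In the contrast of the *Ccdc174-dTAG* effect with and without CHX, fitted in 16 libraries, limma and edgeR called 0 of the 70 genes of these 7 partner lists, and DESeq2 called 2, *Cnot3* and *Lig3*, both higher. At an unadjusted p below 0.05 limma counted 13 of the 70, and 1464 of 15133 genes in all. The largest values among them were those of *Tnik* (−0.86, adjusted p = 0.36), a MAP4K relative of *Mink1*, *Parp3* (0.78, adjusted p = 0.303) and *Cnot3* (0.70, adjusted p = 0.0228), a subunit of the CCR4-NOT deadenylase. Of 3 genes whose introns the study examined, *Tti1*, a cofactor of PIKK kinases, was higher (0.82, limma adjusted p = 0.00186). With the *Ccdc174* libraries alone limma called 0 of 15034 genes, so neither *Tti1* nor any other. Over the 28 libraries, which include those that chose the genes, *Tti1* was the gene most like *Iqgap3* (Pearson r of 0.967). This value is a description.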

How the data were processed

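The authors trimmed and aligned the reads (STAR 2.7.3a per the submitters' processing notes) to mm10, used featureCounts for uniquely mapping reads on the sense strand of each GENCODE gene, and deposited CPM for 55335 genes per table. Duplicate Ribo-seq reads were collapsed. Dividing by the value of 1 read gave whole reads within 0.1 for 100% of the values.

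Each library's deposited CPM were scaled by its median-of-ratios factor (0.681 to 1.14), and log2(CPM + 0.25) was computed. Genes whose mean reached 0.5 CPM entered limma 3.58.1 (R 4.3.3) with a mean-variance trend: 20 RNA-seq libraries without CHX, 8 with CHX, 16 of the CHX experiments, 4 Ribo-seq, and 8 of Ribo-seq and the first experiment. The RNA-seq fits of 20, 8 and 16 libraries include *Nrde2* libraries that chose the genes, so their spread is not independent of the choice. "Lower", "higher", "fell" and "rose" of tested genes mean a Benjamini-Hochberg adjusted p below 0.01 over all genes of the fit. Differential expression also required a log2 fold change beyond 1. Fold changes are on the log2(CPM + 0.25) scale, which understates those of low genes.

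The members, lists and tests were chosen with earlier results of these data known. Named were the members, the targeted genes, up to 4 called genes per list (or the most changed one), not all of them printed, and the 3 most correlated genes per member. Alternatives were 0.1 or 1 added, no filter or at least 1 CPM, CPM as deposited, the compared libraries alone, the replicate number as a block, edgeR 4.0.16 and DESeq2 1.42.0 on the recovered reads, and leaving out each library. The fitting code was tested on simulated data. Splice sites were scored on GRCm38 with GENCODE M21, which holds 55154 of the gene IDs, whereas the authors counted with another GENCODE release. BCLIP-seq samples were not analysed here.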

Additional observations from a re-analysis of the deposited data

Results flagged for a closer look

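The effect of *Ccdc174-dTAG* on the 7 genes was higher in CHX-treated than in untreated cells by the test of that difference in 16 libraries (limma, adjusted p below 0.01). That fit takes part of its spread from the *Nrde2* libraries by which the genes were chosen, so the test is not independent of the choice. With the 8 *Ccdc174* libraries alone, limma called 0 of the 7 at adjusted p-values of 0.0158 to 0.0237. At an unadjusted p below 0.05 were 7 of 7, and 1378 of 15034 genes in all. The effect with CHX minus that without CHX, on the log2 scale, was 0.79 for *Ap3d1*, 0.82 for *Pan2*, 1.10 for *Mink1*, 1.00 for *Aaas*, 0.61 for *Parp2*, 0.67 for *Iqgap3* and 1.01 for *Spice1*.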

How the results depend on the processing

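Of 126 values of the main results under other settings, 121 stayed within 1.5 times the reported count or within the spread of the libraries, and 5 moved: *Mtrex*-KO called 3 members and the *Ccdc174* contrast with and without CHX 0 with only the compared libraries, CHX in *Ccdc174*-WT called 7 with CPM as deposited, Ribo-seq against RNA-seq 1 with edgeR, and 5 splice sites were low by matching positions. Single members reversed under other settings in 6 of 868 values: with CPM as deposited *Pan2* (−0.064) and *Iqgap3* (−0.053) in *Nrde2-D174R*, *Ap3d1* (−0.13) and *Aaas* (−0.017) in *Mtrex*-KO and *Spice1* (0.030) in Ribo-seq against RNA-seq, and with 1 added the last of these again (0.046). The cause was not tested. Leaving out 1 library gave 2 to 7 members in the *Ccdc174* contrast with and without CHX and 2 to 3 in *Ccdc174-dTAG* with CHX. It gave 5 to 6 in *Nrde2d200* and 5 in *Mtrex*-KO. Values near 0 that had not passed the test changed sign: *Pan2* (−0.027 to 0.037), *Iqgap3* (−0.024 to 0.057) and *Mink1* (−0.043 to 0.010) in *Nrde2-D174R*, *Mink1* in *Mtrex*-KO (−0.18 to 0.074), and *Spice1* in Ribo-seq against RNA-seq (−0.23 to 0.11). As a replicate block, the numbers of the labels raised the count in *Ccdc174-dTAG* with CHX to 6 (*Pan2*, adjusted p = 0.00857, and *Mink1*, 0.00582) and left the counts of the other tested comparisons as reported. Deviations of same-numbered libraries correlated at r = −0.03 to 0.42, and the labels state no pairing. CPM as deposited moved the median of all genes by 0.24 for CHX in *Ccdc174-dTAG* and 0.15 in Ribo-seq. Each group held 2 libraries, and *Spice1* had 20 to 87 footprints per Ribo-seq library.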

Other observations

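Over the 28 RNA-seq libraries, the genes whose level was most like that of each member were sought among 13474 genes of at least 1 CPM, by Pearson's r of log2 levels. The 28 libraries include those that chose the members. The libraries of a group are not independent points, CHX and knockout move many genes at once, and the values are a description. *Iqgap3* was most like *Tti1* (0.967), *Eif2ak4* (0.965) and *Vars* (0.963), a cofactor of PIKK kinases, a kinase that senses uncharged tRNA and a valyl-tRNA synthetase. *Ap3d1* was most like *Golga5* (0.951), *Ift172* (0.950) and *1700061G19Rik* (0.947). *Pan2* was most like *Tnip2* (0.938), *Farsa* (0.929) and *Pole* (0.925), and *Spice1* was most like *Prpf40b* (0.928), *Pan2* (0.924) and *Eif2ak4* (0.915). *Aaas* was most like *Trpc4ap* (0.930), *Copa* (0.921) and *Dhx16* (0.914), and *Parp2* most like *Rhot2* (0.905), *Farsa* (0.895) and *Xab2* (0.894). *Mink1* had the lowest values, with *Mybbp1a* (0.864), *Ddx56* (0.842) and *Unc13d* (0.840). Among the 7 members, r ran from 0.295 (*Aaas* with *Pan2*) to 0.924 (*Spice1* with *Pan2*).

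In Ribo-seq, 11 of the 14 nuclear pore genes were lower and 1 was higher in *Nrde2*-KO by limma, where 14.2% of all genes were lower and 11% higher, with a median log2 fold change of −0.61. *Nup205* (−1.20), *Nup188* (−0.98), *Nup210* (−0.90) and *Nup85* (−0.87) fell most. Of 8 ADP-ribosylation and repair genes 3 fell, *Lig3* (−1.06), *Parp1* (−0.96) and *Tdp1* (−0.59). GENCODE M21 annotates transcripts of the nonsense-mediated decay class for *Aaas* (3 of 13 transcripts), *Ap3d1* (2 of 7), *Mink1* (1 of 13), *Parp2* (1 of 8) and *Iqgap3* (1 of 6), and 0 for *Pan2* and *Spice1*. Such a transcript is annotated for 28.4% of the tested genes. A gene with more annotated transcripts has more chances of one, and the share does not allow for this.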
